A study of Mus musculus with 12 samples.

Results

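Dormant and growing D2A1 tumour cells recovered from the lungs of WT hosts were compared over 10221 genes. These were all genes with at least 1 TPM (a relative transcript level corrected for gene length, with the same total in every library) in at least 3 of 6 libraries, out of 54146 genes in the table and 22567 above 0 in any of the 6. Of the 6 libraries, 3 were dormant WT and 3 growing WT, out of 12 libraries in the study, and all 6 belonged to library batch 1. D2A1 is a mouse mammary carcinoma line. It carried a doxycycline-inducible histone H2B fused to green fluorescent protein (GFP) and was labelled with CellVue Claret (CVC), a membrane dye that is diluted when cells divide. Cells were injected into the tail vein of young adult female mice, and GFP-positive cells were later sorted from dissociated lungs. Cells that had kept the dye formed the dormant group and cells that had lost it the growing group. Both groups therefore had the same cell line, host genotype and tissue. The labels call the hosts WT. The study's methods for this sequencing also say WT, while its figure legends, that of the sequencing included, call the control hosts mice with a floxed Tgfbr2 gene. Which of these applied is not settled by these sources. Each library was made from a small sorted aliquot. The labels number the libraries 1 to 3 in each group without naming an animal, so p-values measure the spread between these libraries. The question was what RNA distinguishes tumour cells that divided little or not at all in the lung, and so kept the dye, from those that grew there. The second host, KO, lacked Tgfbr2 in myeloid cells expressing LysM-Cre, and is used only for comparison at the end.

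Tumour cells that reach a distant organ may stop dividing and persist as solitary cells or small clusters, a state called cellular dormancy. Cells outside the cycle usually hold less RNA for the enzymes that make deoxynucleotides and copy DNA, for the histones that package the new DNA, and for the kinetochore and spindle proteins of mitosis. In the lung such cells lie among macrophages, which take up particles, present peptides on MHC class II molecules and release chemokines and complement C1q.

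In WT hosts the dormant libraries had more RNA of macrophage genes, among them Cd74, Lyz2, Ctss, Fcer1g and the C1q genes, more Tmsb4x, Malat1, Fn1 and Ltbp1, and a group of satellite-type transcripts that were close to 0 in the growing libraries. They had less RNA of Rrm2, Tyms, Cenpa, Cks1b, H2afz, Eif5a, Dnajb1 and Sept2. Spp1, the most abundant of these transcripts, did not pass the test in either direction, and neither did Mki67, Top2a or Cdkn1a. Differences are dormant minus growing on the log2(TPM + 1) scale, which understates the change of genes at low TPM, and calls required a limma adjusted p no higher than 0.05 together with a size of 1 or more.

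The dormant libraries were less complete than the growing ones and differed more from each other. Dormant WT libraries 1, 2 and 3 held 13242, 11325 and 12240 genes above 0, and the growing libraries 14475, 14352 and 14388. Of the 10221 genes tested, 13.8%, 27.0% and 21.1% were listed at 0 in the dormant libraries and between 1.5% and 1.58% in the growing libraries. Pearson's r across genes, which are not independent replicates, had a mean of 0.644 ± 0.0218 (SD, 3 pairs) between dormant libraries and 0.950 ± 0.00197 (3 pairs) between growing libraries. Dormant libraries had a mean r of 0.708 with growing ones (9 pairs), higher than with each other. Mitochondrial transcripts took 4.29% to 6.62% of TPM in dormant and 5.52% to 6.3% in growing libraries, and haemoglobin transcripts 0.897% to 1.3% against 0.619% to 0.685%. TPM holds no depth, so the number of reads behind a value is unknown.

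**Figure D1:**
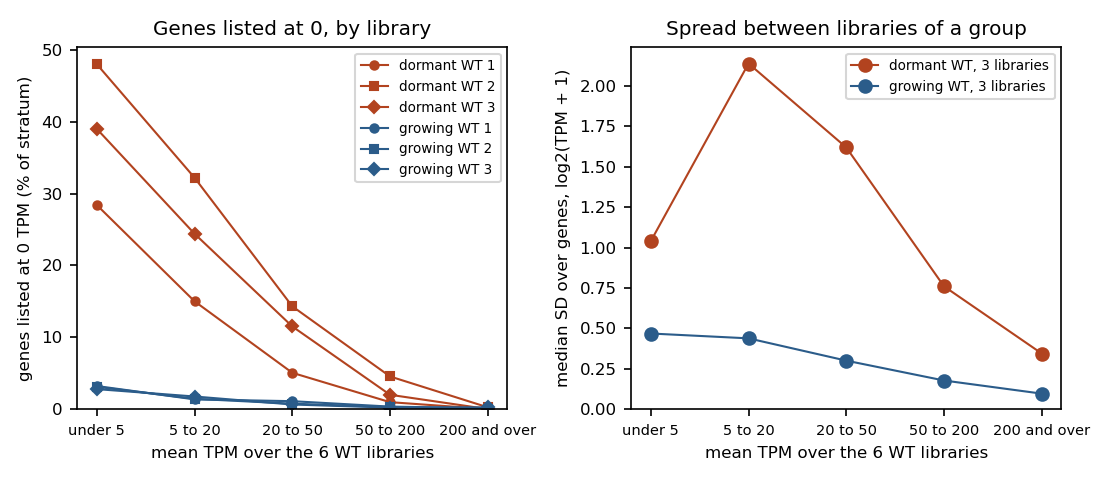
Left, the share of genes listed at 0 TPM in each of the 6 WT libraries, by mean TPM over those libraries. Right, the median over genes of the SD between the 3 libraries of a group, on the log2(TPM + 1) scale. Below 5 TPM, 28.4% to 48.0% of genes were at 0 in dormant and 2.78% to 3.21% in growing libraries, and at 200 TPM and over at most 0.244% were at 0 in any library.

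This difference in completeness bore on the calls. Of the 10221 genes, 933 (9.13%) were called, 123 higher (1.2%) and 810 lower (7.92%) in dormant libraries, and 2197 had an unadjusted p under 0.05. With limma weights that allow for the wider spread of dormant libraries, the calls were 67 (34 higher and 33 lower) with 1 weight per library and 60 (33 and 27) with 1 weight per state, the latter chosen after seeing the data. The median difference over all genes was -0.44, and 6701 genes lay below 0. Of the 810 genes called lower, 708 were under 1 TPM in every dormant library and at 1 TPM or more in every growing one. Those genes passed the filter through the growing group alone and had to differ. The other 102 lower calls, and the 95 higher calls that did not pass through the dormant group alone, did not have to differ in this way. Some of them still leaned on the filter, with 1 library of the lower group at 1 TPM or more. Ccl8 (growing libraries at 0, 4.36 and 0 TPM) and E2f4 (dormant libraries at 0, 0 and 1.92 TPM) are examples. In all, 3017 genes (29.5%) had groups that did not overlap, 905 (8.85%) with dormant libraries higher and 2112 (20.7%) with them lower, and every called gene was among them. Genes called lower had a median mean TPM of 2.97 and genes called higher one of 82.6.

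Among the 2275 genes with a mean of at least 50 TPM, where few zeros occurred, the directions were nearer to balance, with 67 called higher (2.95%) and 51 lower (2.24%). The median difference there was -0.35. The spread between dormant libraries was still the wider one in this range, with a median SD of 0.76 against 0.177 between 50 and 200 TPM and 0.344 against 0.0956 from 200 TPM. Of these calls, 44 of the 67 higher and 12 of the 51 lower were kept in each of the 6 fits that left out 1 library. The scale also mattered, because quantile normalization, which gives every library the same distribution, moved the median of all genes to 0.02. It made 52.2% of the calls higher in dormant libraries, against 13.2% on TPM as deposited.

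**Figure D2:**
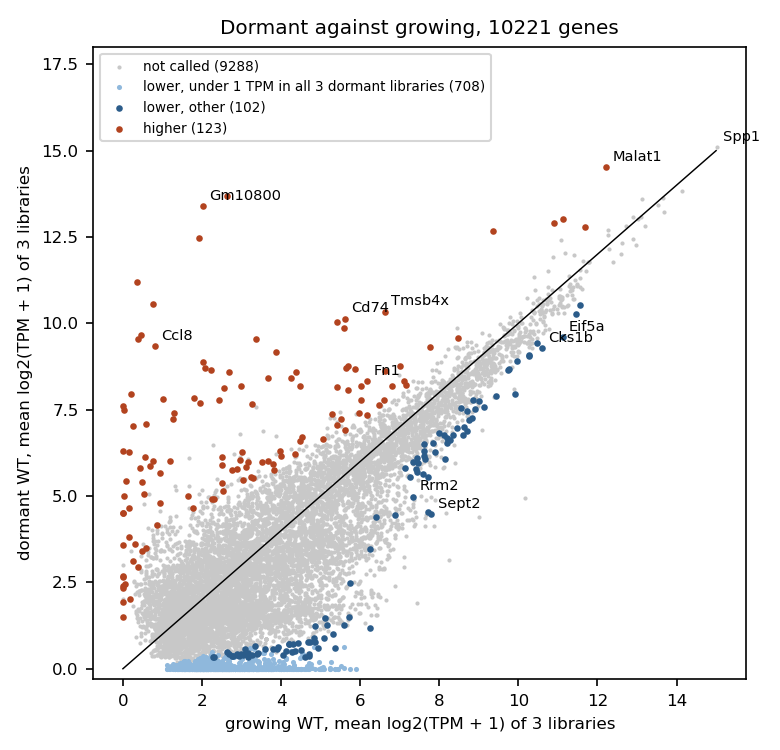
Mean log2(TPM + 1) of the 3 dormant WT libraries (y axis) against that of the 3 growing WT libraries (x axis) for 10221 genes, 1 point per gene, with the line of equal values. Red points were called higher (123), dark blue points lower (102) and pale blue points lower with under 1 TPM in every dormant library (708). The pale points lie along the bottom edge.

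Among the cell type lists, that of macrophages rose most. Of 24 macrophage and monocyte markers, 17 passed the filter, 12 (70.6%) were called higher and 1 (5.88%) lower, and their median difference was 4.51, beside 1.2%, 7.92% and -0.44 over all genes. Of the 12, Ptprc and Mrc1 passed the filter through the dormant group alone and had to differ, as did Ly6c2, the lower call, through the growing group. The invariant chain Cd74, which guides MHC class II molecules, was at 1346, 1171 and 903 TPM in dormant and at 50.6, 49.6 and 44.7 TPM in growing libraries. All 3 dormant libraries lay far above all growing ones, with a log2 difference of 4.52 ± 0.216 (SE, limma adjusted p 0.000335). Lyz2, the lysozyme of myeloid cells, was at 782, 1407 and 1049 TPM in dormant libraries against 45.9, 61.4 and 26.0 TPM, a difference of 4.61 ± 0.378. Fcer1g, the signalling chain shared by activating Fc receptors, was at 385, 473 and 400 TPM against 1.85, 5.84 and 2.92 TPM, a difference of 6.62 ± 0.448. For both the groups were apart in every library, and dormant library 2 was the highest.

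The 3 chains of C1q, the complement component that recognises opsonised targets, lie side by side on chromosome 4 and rose together. C1qa (chromosome 4, 136895917 to 136898803, minus strand, GRCm38) had levels of 323, 172 and 161 TPM in dormant and 5.99, 2.25 and 1.59 TPM in growing libraries. C1qb had 296, 214 and 189 TPM against 0, 5.98 and 4.88 TPM, and C1qc 250, 185 and 232 TPM against 1.82, 5.42 and 7.79 TPM. No dormant value of any chain came near a growing one, and the differences were 5.75, 6.06 and 5.35. Ctss, a lysosomal protease that trims the invariant chain, was at 535, 363 and 337 TPM in dormant libraries and at 0.49, 6.32 and 8.32 TPM in growing ones, a difference of 6.44 ± 0.745. Mrc1, the mannose receptor, was at 27.8, 16.6 and 31.2 TPM against 0.23, 0.12 and 0 TPM, so the growing libraries were all under 1 TPM.

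The MHC class II genes of the H2 complex on chromosome 17 gave the same picture. H2-Aa, an alpha chain, was at 518, 323 and 235 TPM in dormant and 7.65, 13.97 and 15.2 TPM in growing libraries, a difference of 4.73 ± 0.439 (adjusted p 0.0104). H2-Ab1, its beta chain partner, was at 1344, 898 and 662 TPM against 43.1, 53.6 and 44.5 TPM, a difference of 4.28 ± 0.298. H2-Eb1, the beta chain of the other class II pair, was at 451, 448 and 197 TPM against 12.8, 23.8 and 19.7 TPM, a difference of 4.16 ± 0.446. In all 3 genes dormant library 3 was the lowest of the dormant libraries and still above every growing one. Class II promoters hold a Y box, the site of the factor NF-Y. The promoter windows of H2-Aa and H2-Eb1 (RefSeq, GRCm38.p6, 250 bases before to 50 bases after the start, 5′ to 3′ on the gene's strand) are shown because these genes moved together, with the Y box letters CTGATTGG in capitals. H2-Aa lies at chr17:34287774-34288073 on the minus strand and H2-Eb1 at chr17:34305617-34305916 on the plus strand.
H2-Aa: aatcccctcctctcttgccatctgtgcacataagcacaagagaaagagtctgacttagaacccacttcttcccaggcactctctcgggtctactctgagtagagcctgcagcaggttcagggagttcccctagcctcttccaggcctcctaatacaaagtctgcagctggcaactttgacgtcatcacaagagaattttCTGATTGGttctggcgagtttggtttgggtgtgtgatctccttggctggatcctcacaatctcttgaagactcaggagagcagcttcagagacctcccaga
H2-Eb1: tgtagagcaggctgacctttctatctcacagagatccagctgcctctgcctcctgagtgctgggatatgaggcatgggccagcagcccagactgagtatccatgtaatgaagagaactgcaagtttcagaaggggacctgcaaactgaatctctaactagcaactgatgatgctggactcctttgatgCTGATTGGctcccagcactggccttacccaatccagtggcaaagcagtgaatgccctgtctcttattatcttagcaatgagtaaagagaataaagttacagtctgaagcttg
Each window held 1 match on the gene's own strand. On either strand the letters occurred in 4.1% of 32851 RefSeq windows of this length. A match is a description of the letters and was not tested as a binding site.

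Chemokine genes made by macrophages were among the largest rises by size. Ccl8, a ligand of monocyte chemokine receptors, was at 405, 799 and 820 TPM in dormant libraries and at 0, 4.36 and 0 TPM in growing ones, a log2 difference of 8.52 ± 0.776 (limma adjusted p 0.00976). Ccl6 was at 391, 609 and 434 TPM against 0.54, 6.53 and 4.80 TPM, a difference of 6.85. Ccl5, which attracts T cells and monocytes, was at 420, 486 and 285 TPM against 19.9, 10.8 and 35.6 TPM, a difference of 4.22. The growing libraries were not at 0 for these genes as a group, and no growing library reached a dormant one. Others among the 10 largest by the naming rule were Dnase1l3 (a macrophage and dendritic cell nuclease, 6.81), Defb52 (a beta-defensin, 6.49), Wfdc17 (6.17), Aif1 (an actin-binding protein of macrophages, 6.13) and Fcgr2b (the inhibitory Fc receptor). Mir669a-2, whose annotated hairpin was at 33.6, 115 and 118 TPM in dormant libraries and listed at 0 in all growing ones, completed them, and a level at a hairpin does not measure the mature microRNA. Fcgr2b, at 0.21 TPM or less in growing libraries, and Mir669a-2 had passed the filter through the dormant group alone and had to differ. Ptprc, the pan-leukocyte antigen CD45, was at 46.6, 46.4 and 13.5 TPM in dormant and 0, 0.05 and 0 TPM in growing libraries, so it had passed the filter through the dormant group alone and had to differ.

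Not all macrophage markers followed. Csf1r and Adgre1, receptors that define tissue macrophages, did not pass the filter. Csf1r was at 3.59, 0 and 0.14 TPM in dormant and 0.02, 0.88 and 0.55 TPM in growing libraries, and Adgre1 at 9.17, 0 and 0.77 against 0, 2.04 and 0 TPM. Marco and Siglecf, markers of alveolar macrophages, were above 0.1 TPM only in dormant library 2, at 19.7 and 4.33 TPM. Tyrobp (180, 61.4 and 59.7 TPM against 0.44, 16.3 and 3.66 TPM, adjusted p 0.0515) and Cd14 (198, 87.5 and 286 against 45.5, 31.6 and 58.7 TPM, adjusted p 0.0644) had groups that did not overlap and were not called. Ly6c2, a marker of classical monocytes, was listed at 0 in every dormant library and at 5.33, 3.02 and 1.72 TPM in growing ones, and was the 1 marker called lower. Summed over the 24 markers, the level was 6274, 5793 and 4535 TPM in dormant and 228.5, 283.6 and 244.6 TPM in growing libraries. The cells had been sorted on GFP and the dye. Whether these transcripts came from tumour cells or from macrophages in the sorted aliquot was not tested, and in bulk libraries more cells of a type and more RNA per cell cannot be told apart.

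Lists of other cell types held at most 1 call each, where 1.2% of all genes were called higher and 7.92% lower. S100a8, a calcium-binding protein of neutrophils and monocytes, was called higher, at 428, 559 and 304 TPM against 51.1, 60.7 and 38.3 TPM (3.06 ± 0.319, limma adjusted p 0.0132), while the neutrophil genes Elane, Ltf, Camp, Mmp8 and Ly6g were listed at 0 in all 6 libraries. Only 3 of 13 neutrophil and 2 of 20 T and NK cell genes passed the filter, with 1 of each called higher (S100a8 and Ccl5), and Cd4, Cd3d, Gzmb and Prf1 were at 0 throughout. Of the 3 neutrophil genes tested, 2 (66.7%, beside 8.85% of all genes) had dormant libraries above all growing ones, and the median was 3.06. Summed levels of the neutrophil list were 612.2, 914.7 and 341.7 TPM in dormant and 56.64 to 79.92 TPM in growing libraries. Summed levels of the T and NK list were 291.6 to 518.6 TPM in dormant and 21.86 to 54.39 TPM in growing libraries, mostly Ccl5. Summed endothelial markers were at 46.02, 171.5 and 101.8 TPM in dormant and 15.44 to 21.38 TPM in growing libraries, with 5 of 15 tested and none called. Among B cell, alveolar type 1, alveolar type 2, mesothelium and platelet genes 1 each was called lower (Cd79a, Rtkn2, Napsa, Slpi and Itga2b), and each of these was below 0.5 TPM in every dormant library, passed the filter through the growing group alone and had to differ. No club cell, fibroblast or erythroid gene was called, although 5 of 12, 9 of 15 and 7 of 10 were tested. Their summed levels were 213.5, 36.88 and 338.2 TPM (club and ciliated), 630.9, 777.4 and 759.1 TPM (fibroblast) and 9209, 13170 and 11120 TPM (erythroid) in dormant libraries. In growing libraries they were 316.9 to 350.2, 716.7 to 897.2 and 6330 to 6942 TPM. Of the 7 erythroid genes 3 (42.9%, beside 8.85% of all genes) had dormant libraries above all growing ones. Sftpc, the surfactant gene of alveolar type 2 cells, was at 41.2, 141 and 110 TPM in dormant and 46.0, 84.6 and 68.1 TPM in growing libraries, so its groups overlapped (adjusted p 0.709).

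The labelled cell type was a mammary tumour cell. Of 18 mammary epithelial markers, 4 passed the filter and none was called. The luminal keratins were present, Krt8 at 381, 188 and 183 TPM in dormant against 153, 168 and 166 TPM in growing libraries, and Krt18 at 179, 131 and 231 TPM against 243, 276 and 327 TPM. Their differences of 0.54 and -0.67 did not pass (limma adjusted p 0.416 and 0.215). Epcam and Cdh1, which define epithelium, were at most 1.66 TPM in any library, and Krt14, Krt5 and Krt7 were listed at 0 in all 6, so defining epithelial markers were at or near 0 in both groups.

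**Figure D3:**
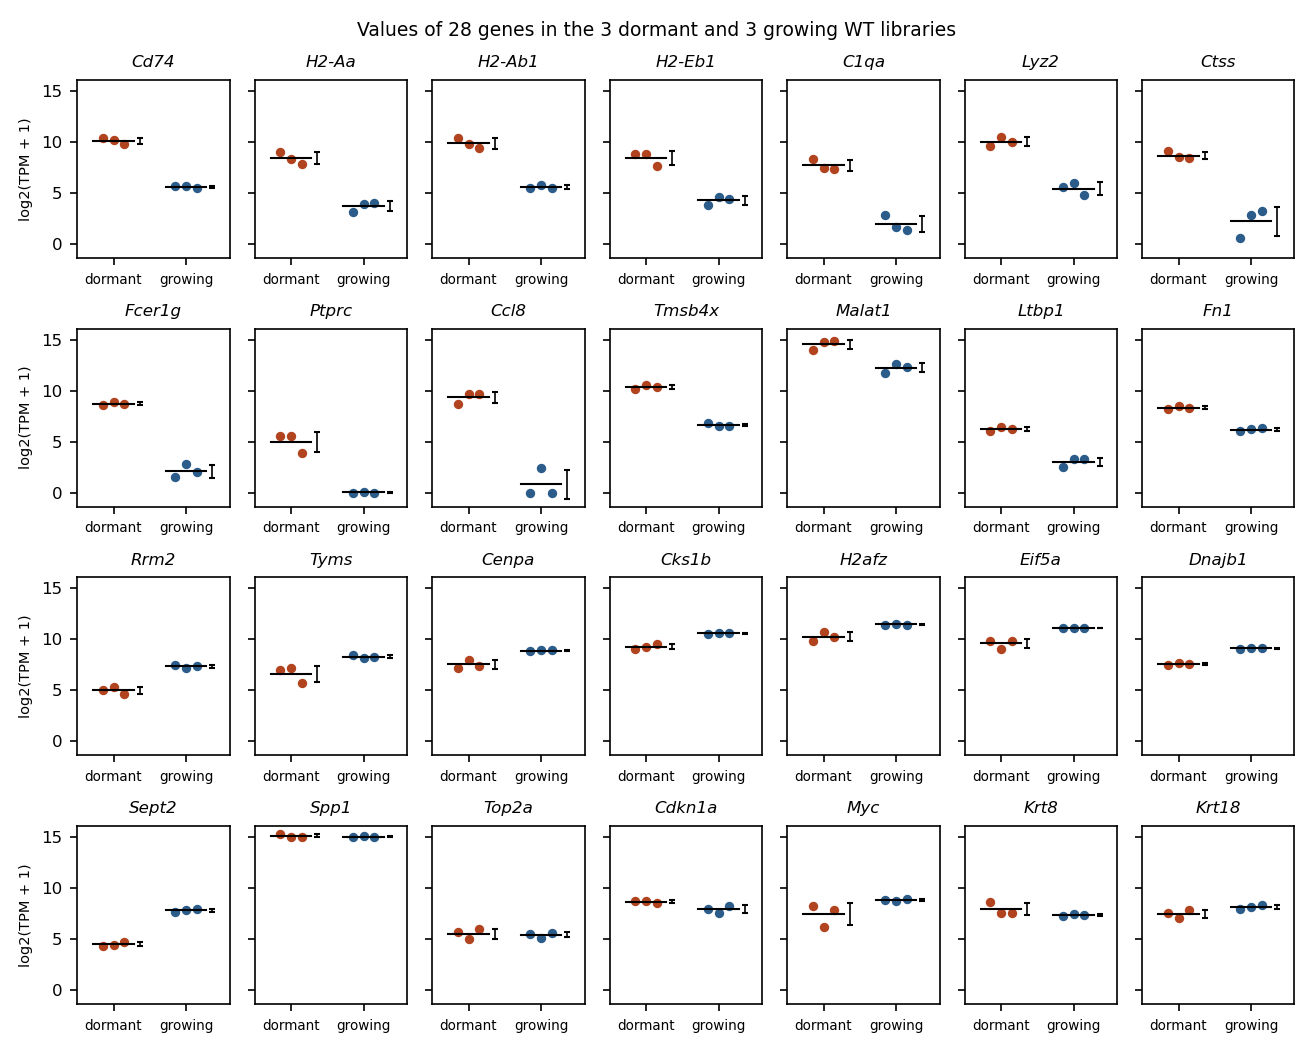
Values of 28 genes in the 6 WT libraries on the log2(TPM + 1) scale, with 1 point per library in the order 1 to 3, a line at the mean of 3 and a bar of ± 1 SD beside it. Dormant libraries are red and growing libraries blue. The genes from Cd74 to Ccl8 have group means over 4 units apart, Rrm2 to Sept2 lie lower in dormant libraries in every case, and the groups of Spp1 and Top2a overlap.

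Single actin and matrix genes rose as well. Of 23 actin cytoskeleton genes tested, 1 (4.35%, beside 1.2% of all genes) was called higher and 1 (4.35%, beside 7.92%) lower, 65.2% lay below 0, beside 65.6%, and the median was -0.18, beside -0.44. Tmsb4x, which codes for thymosin beta-4 and binds free actin, was at 1131, 1464 and 1315 TPM in dormant and 109, 92.6 and 92.2 TPM in growing libraries. The groups were far apart, with a difference of 3.72 ± 0.175 (limma adjusted p 0.000335), and the call was kept in all 6 fits that left out 1 library. Actb moved less, at 11491, 14632 and 11426 TPM against 9145, 8023 and 9710 TPM, and was not called (0.48, adjusted p 0.0562). Tagln2, an actin-bundling protein, fell, at 24.6, 51.3 and 75.8 TPM in dormant and 217, 229 and 183 TPM in growing libraries (-2.16 ± 0.438).

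Fn1, the matrix protein fibronectin (chromosome 1, 71585520 to 71653200, minus strand), had levels of 297, 368 and 304 TPM in dormant and 62.9, 73.4 and 78.4 TPM in growing libraries. The groups were wide apart and the dormant values close together, with a difference of 2.16 ± 0.223 (limma adjusted p 0.0132). Among 20 fibronectin, integrin and focal adhesion genes tested, Fn1 was the 1 called (5%, beside 1.2% of all genes), and 7 (35%, beside 8.85%) had dormant libraries above all growing ones. Of these genes 25% lay below 0, beside 65.6% of all genes, and the median was 0.54. Itgb1, the common beta subunit of fibronectin receptors, was at 232, 148 and 104 TPM against 117, 98.1 and 121 TPM and overlapped (0.45, adjusted p 0.522). Itga6 and Itgb4, which pair as a laminin receptor, had groups that did not overlap, with differences of 1.44 and 2.56, and were not called (adjusted p 0.167 and 0.0757). Of 20 collagen and matrix enzyme genes, 2 (10%, beside 1.2% of all genes) were called, both stromelysins and both higher, and 8 (40%, beside 8.85%) had dormant libraries above all growing ones. Mmp10 was at 683, 873 and 728 TPM against 402, 353 and 320 TPM (1.08 ± 0.165). Mmp3 was at 183, 158 and 654 TPM against 55.4, 59.2 and 39.6 TPM (2.37 ± 0.568, adjusted p 0.0489), so that dormant library 3 was the highest by far. Sparc, a collagen-binding matrix protein, passed the adjusted p (0.0251) at 473, 478 and 451 TPM against 286, 231 and 279 TPM, but its difference of 0.82 was below the limit of 1.

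The TGF-beta pathway was read by role, since loss of its receptor in the host defined the other arm of the study. Of 24 pathway genes tested, 2 (8.33%) were called higher and 1 (4.17%) lower, beside 1.2% and 7.92% of all genes, and the median was 0.13, beside -0.44. Under quantile normalization the list's median was 1.13, beside 0.02 over all genes. Among ligands, Tgfb2 was at 0, 1.54 and 0 TPM in dormant and 6.44, 3.16 and 1.33 TPM in growing libraries (adjusted p 0.190 by limma), and Tgfb3 at 32.3, 30.2 and 14.2 TPM against 6.93, 6.96 and 5.45 TPM (1.76, adjusted p 0.162). Ltbp1, which holds latent TGF-beta in the matrix, was at 66.6, 86.2 and 75.9 TPM against 4.85, 8.49 and 8.48 TPM, a rise of 3.25 ± 0.467 (adjusted p 0.0132). The receptor gene Tgfbr2 was low and scattered, at 3.38, 0.14 and 11.1 TPM against 1.01, 0.44 and 0.72 TPM (1.20, adjusted p 0.496). Smad3, a signal transducer, was at 0.02, 0.24 and 0 TPM in dormant and 1.35, 2.77 and 2.57 TPM in growing libraries, and was called lower among the genes that passed the filter through the growing group alone. Under quantile normalization its difference turned to 0.27. Tgfbi, a TGF-beta-induced matrix protein, was called higher at 13.5, 5.18 and 30.3 TPM against 0, 0 and 0.38 TPM. It had passed the filter through the dormant group alone and its call was kept in 3 of 6 fits that left out 1 library, so Ltbp1 was the 1 higher call free of the filter. The response genes Id1 and Id3 were not called, with differences of 0.05 and -0.72.

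Malat1, a long noncoding RNA retained in the nucleus (chromosome 19, 5795690 to 5802672, minus strand), had levels of 16692, 26990 and 29170 TPM in dormant and 3396, 6140 and 5233 TPM in growing libraries. The lowest dormant library was above the highest growing one, and the difference was 2.30 ± 0.283 (limma adjusted p 0.0132). RP24-458F14.4, an unclassified transcript that overlaps Malat1 on the opposite strand (5801941 to 5802393), rose by 1.89, and reads of the pair cannot be told apart where strand was not used. Neat1 and Xist, also nuclear, had groups that did not overlap, with differences of 1.84 and 2.09, and were not called (adjusted p 0.169 and 0.142). Snhg12 was listed at 0 in all dormant libraries and called lower, having passed the filter through the growing group alone. Yam1, a long noncoding RNA, was at 14627, 4242 and 4573 TPM against 847, 1144 and 297 TPM (3.31 ± 0.648), and dormant library 1 was the highest by far.

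The largest differences of all were those of satellite-type gene models, predicted genes whose list had been chosen on these libraries. Gm10800 (chromosome 2, 98666547 to 98667301, minus strand) had levels of 7582, 14906 and 10804 TPM in dormant and 3.97, 2.77 and 2.64 TPM in growing libraries, a difference of 11.35 ± 0.301. Gm26870 (chromosome 9, 3000282 to 3038313, minus strand) had levels of 9239, 18061 and 13754 TPM against 4.62, 5.89 and 5.19 TPM, a difference of 11.05 ± 0.276. All 12 models were called higher, 10 of which had passed the filter through the dormant group alone and had to differ, each with dormant library 2 highest and library 1 lowest, and the list held 2.12%, 4.16% and 3.1% of TPM in dormant libraries and at most 0.0011% in growing ones. The order of the libraries was that of the share of genes listed at 0, which was also highest in library 2 and lowest in library 1. Gm21738 on chromosome 14 was not in the list and was at 4005, 7925 and 5913 TPM against 2.33, 2.71 and 3.37 TPM. RSEM shares reads between similar copies by an estimate, so the level of a single model is uncertain. Whether genomic DNA or the library protocol contributed was not tested.

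Genes of DNA synthesis had the lowest median of the lists with 5 or more genes tested. Of 36 DNA replication and E2F target genes, 34 (94.4%) lay below 0, 19 (52.8%) had all dormant libraries below all growing ones, 7 (19.4%) were called lower and 0 higher, and the median was -2.37. Over all genes 65.6% lay below 0, 20.7% were apart in that direction, 7.92% were called lower and the median was -0.44. Rrm2, the catalytic partner in ribonucleotide reductase, which makes deoxynucleotides (chromosome 12, 24708241 to 24714146, plus strand), had levels of 31.0, 38.8 and 23.7 TPM in dormant and 174, 147 and 161 TPM in growing libraries. All dormant values were far below the growing ones, and the fall was -2.35 ± 0.315 (limma adjusted p 0.0132), kept in all 6 fits that left out 1 library. Tyms, thymidylate synthase, was at 124, 141 and 51.9 TPM against 344, 282 and 305 TPM (-1.66 ± 0.401, adjusted p 0.050), a call kept in 3 of 6 such fits. The other 5 called were Chaf1b (a histone chaperone), Cdc6 (an origin licensing factor), Pold1 and Pole (replicative polymerase subunits) and Uhrf1 (a maintenance factor of DNA methylation). Each of these 5 was under 0.5 TPM in every dormant library and passed the filter through the growing group alone.

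Most other replication genes were scattered in dormant libraries rather than low in all of them. Mcm6, a subunit of the replicative helicase, was at 0, 51.5 and 61.1 TPM in dormant and 66.6, 67.2 and 98.2 TPM in growing libraries (adjusted p 0.459). Mcm3, another subunit, was at 30.2, 37.6 and 128 TPM against 48.6, 65.8 and 39.4 TPM (adjusted p 0.961). Pcna, the sliding clamp, was at 61.6, 262 and 82.5 TPM against 232, 203 and 210 TPM (adjusted p 0.380). Tk1, thymidine kinase, was at 0, 163 and 36.9 TPM against 167, 164 and 163 TPM. For these 4 genes 1 or more dormant libraries reached or came close to the growing level, and none was called. Mcm6 and Tk1 still had all dormant libraries below all growing ones, while the groups of Mcm3 and Pcna overlapped.

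Mitotic genes had the next lowest median, with a share of calls near that of all genes. Of 32 G2/M genes tested, 31 (96.9%) lay below 0, 14 (43.8%) had all dormant libraries below all growing ones, and the median was -1.82, beside 65.6%, 20.7% and -0.44 over all genes. Of the 32 genes, 2 (6.25%, beside 7.92% of all genes) were called lower and 0 higher. Cenpa, the histone variant that marks centromeres, was at 148, 250 and 165 TPM in dormant and 462, 481 and 482 TPM in growing libraries, a fall of -1.37 ± 0.234 (limma adjusted p 0.0160) that was kept in 3 of the 6 fits that left out 1 library. Bub1, a kinase of the spindle checkpoint, was listed at 0 in all dormant libraries and at 12.03, 23.2 and 21.3 TPM in growing ones, and passed the filter through the growing group alone. Pttg1, the securin that holds sister chromatids, was at 125, 280 and 579 TPM against 951, 892 and 1016 TPM, a gap in every library that was not called (-1.80, adjusted p 0.0879). Ube2c, a ubiquitin-conjugating enzyme of mitotic exit, was at 56.1, 274 and 111 TPM against 482, 625 and 514 TPM (-2.15, adjusted p 0.0585). Birc5, a chromosomal passenger protein, was at 44.5, 0 and 209 TPM against 540, 499 and 498 TPM (adjusted p 0.206). Dormant library 3 had the highest level of the dormant libraries for Pttg1, Birc5, Ccnb2 and Aurka, and the summed level of the list was 804.9, 1454 and 2659 TPM in dormant libraries 1, 2 and 3 against 4201 to 4376 TPM in growing ones.

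The proliferation marker Mki67 did not follow. It was at 0.17, 0 and 29.9 TPM in dormant and 5.41, 3.84 and 6.12 TPM in growing libraries, so that dormant library 3 was the highest of all 6 and the other dormant libraries the lowest (-0.87, limma adjusted p 0.769). Top2a, the topoisomerase that untangles chromosomes, was at 48.2, 29.7 and 59.7 TPM against 43.6, 34.0 and 47.1 TPM, with overlapping groups (0.10, adjusted p 0.926). Aurkb, a mitotic kinase, was at 0, 0.04 and 67.3 TPM against 54.3, 44.4 and 39.1 TPM. In Mki67 and Aurkb dormant library 3 was above every growing library while libraries 1 and 2 were near 0.

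Cks1b, a binding subunit of cyclin-dependent kinases (chromosome 3, 89415472 to 89418383, minus strand), had levels of 531, 617 and 727 TPM in dormant and 1471, 1554 and 1611 TPM in growing libraries. Its fall of -1.32 ± 0.143 (limma adjusted p 0.0132) was among the best separated of the cycle genes. Many promoters of mitotic genes hold a CHR, a site of the DREAM and MuvB complexes, and CCAAT boxes, sites of NF-Y. The windows of Cenpa (chr5:30666636-30666935, plus strand) and Cks1b (chr3:89418242-89418541, minus strand) are shown because these were the called mitotic and cycle genes at high levels (RefSeq, GRCm38.p6, 250 bases before to 50 after the start, 5′ to 3′ on the gene's strand). Capitals mark the CHR letters TTTGAA and the letters CCAAT on either strand.
Cenpa: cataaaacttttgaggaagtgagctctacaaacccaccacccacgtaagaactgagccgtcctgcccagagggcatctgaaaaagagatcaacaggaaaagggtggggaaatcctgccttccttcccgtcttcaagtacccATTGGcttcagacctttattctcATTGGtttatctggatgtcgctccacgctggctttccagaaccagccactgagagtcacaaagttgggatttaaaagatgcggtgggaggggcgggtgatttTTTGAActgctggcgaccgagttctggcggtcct
Cks1b: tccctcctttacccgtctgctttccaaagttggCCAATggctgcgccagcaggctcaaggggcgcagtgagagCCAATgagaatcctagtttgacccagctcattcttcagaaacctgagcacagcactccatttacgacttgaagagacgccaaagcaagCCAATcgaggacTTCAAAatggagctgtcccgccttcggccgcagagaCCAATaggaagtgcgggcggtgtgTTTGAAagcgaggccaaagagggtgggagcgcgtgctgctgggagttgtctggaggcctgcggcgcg
Cenpa held 1 CHR match and 2 CCAAT matches, and Cks1b 2 and 4. A window with at least 1 of each occurred among 6.95% of 32851 RefSeq windows, with TTTGAA in 17.9% and CCAAT in 37.4%. The matches describe letters and were not tested as sites.

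Regulators of cycle entry were mixed. Of 22 cyclin, inhibitor and pocket protein genes tested, 2 (9.09%, beside 7.92% of all genes) were called lower and 0 higher, and the median was -0.12, which turned to 0.29 under quantile normalization. Cdkn1a, the inhibitor p21, was at 429, 413 and 364 TPM in dormant and 250, 188 and 304 TPM in growing libraries, a gap without overlap that was not called (0.72, limma adjusted p 0.111). Cdk6, a G1 kinase, was at 84.9, 40.7 and 45.2 TPM against 14.2, 17.5 and 14.9 TPM (1.74, adjusted p 0.0733). Cdk4, its close relative, was at 103, 269 and 124 TPM against 359, 315 and 316 TPM (-1.12, adjusted p 0.136). Neither kinase was called, and the groups overlapped for neither. Ccnd1 (cyclin D1) and Cdkn1b (p27) had overlapping groups, with adjusted p of 0.515 and 0.715. The 2 calls, E2f4 and Trp53, had dormant levels of at most 1.92 TPM, and Trp53 had passed the filter through the growing group alone. Myc was at 299, 72.1 and 232 TPM in dormant and 446, 411 and 495 TPM in growing libraries, apart in all but not called (-1.39, adjusted p 0.184).

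A few histone and chromatin-packaging genes fell. Of 17 clustered histones and variants tested, 5 (29.4%, beside 7.92% of all genes) were called lower and 0 higher, 5 lay above 0, and the median was -1.01. Of the 5 calls, 3 had passed the filter through the growing group alone and had to differ. H2afz, the replacement histone H2A.Z, was at 933, 1649 and 1200 TPM in dormant and 2703, 2914 and 2770 TPM in growing libraries (-1.19 ± 0.202, limma adjusted p 0.0158, kept in 2 of 6 fits that left out 1 library). Hmgb2, a DNA-bending protein of dividing cells, was at 10.9, 12.3 and 76.5 TPM against 231, 202 and 194 TPM (-3.18 ± 0.738, kept in 1 of 6). The other 3, Hist1h4h, Hist1h2bg and Hist1h4d, were listed at 0 in every dormant library. Under quantile normalization the list's median was -0.23.

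Genes of protein synthesis were lower in most members, by small amounts. Of 50 cytosolic ribosomal protein genes, 48 (96%, beside 65.6% of all genes) lay below 0 and 41 (82%, beside 20.7%) had dormant libraries below all growing ones. The median of -0.48 was close to the -0.44 of all genes, and 2 (4%, beside 7.92%) were called. Rps15 was at 469, 507 and 661 TPM against 1267, 1218 and 1239 TPM (-1.20 ± 0.156, limma adjusted p 0.0132) and Rpl27 at 871, 570 and 657 TPM against 1472, 1363 and 1424 TPM (-1.04 ± 0.171, kept in 2 of 6 fits that left out 1 library). The pseudogene Rps2-ps10 was called as well (-1.04), and its reads can be shared with the parent gene. Eif5a, a translation factor that relieves stalled ribosomes (chromosome 11, 69916714 to 69921958, minus strand), had levels of 935, 544 and 933 TPM against 2249, 2163 and 2246 TPM (-1.51 ± 0.220). Of 30 MYC target and ribosome biogenesis genes 27 (90%, beside 65.6% of all genes) lay below 0, with a median of -0.88. Of these genes 1 (3.33%, beside 7.92%) was called lower, Utp20, which passed the filter through the growing group alone.

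Proteasome, heat shock, glycolysis and oxidative phosphorylation lists had 1 call each, of 29, 14, 25 and 49 genes tested, which is 2.04% to 7.14% beside the 7.92% of all genes. Psmb3, a proteasome core subunit, was at 712, 493 and 423 TPM in dormant and 1156, 1245 and 1277 TPM in growing libraries (-1.21 ± 0.204, limma adjusted p 0.0156), and 28 of 29 proteasome genes lay below 0 with a median of -0.59. Dnajb1, a co-chaperone of Hsp70, was at 176, 204 and 188 TPM against 539, 576 and 563 TPM, tight in both groups (-1.56 ± 0.155, adjusted p 0.0132), while 6 of the 14 heat shock chaperones lay above 0 and their median was -0.08. Pgam1, a glycolytic mutase, was at 169, 130 and 246 TPM against 391, 440 and 412 TPM (-1.23), and the glycolysis median was -0.39. Atp5c1, a subunit of ATP synthase, was at 381, 548 and 329 TPM against 890, 781 and 935 TPM (-1.08, kept in 2 of 6 fits that left out 1 library). Over the 49 nuclear oxidative phosphorylation genes the median was -0.23, and over the 13 genes of the mitochondrial genome it was 0.03 with none called. Of 28 unfolded protein and stress response genes, 1 (3.57%, beside 1.2% of all genes) was called higher and 1 (3.57%, beside 7.92%) lower, and the median was -0.18. The higher call was Canx, a chaperone of the endoplasmic reticulum, at 267, 434 and 279 TPM against 125, 138 and 147 TPM (1.22 ± 0.251, kept in 2 of 6). The lower call, Chac1 (-2.71), was listed at 0 in all dormant libraries and passed the filter through the growing group alone.

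Sept2, a septin of the cytokinetic furrow, was singled out after its values were seen. It was at 19.1, 20.2 and 24.3 TPM in dormant and 202, 226 and 240 TPM in growing libraries, and it had the smallest adjusted p of any gene called lower, 0.00729 with limma, at -3.34. It was kept in all 6 fits that left out 1 library.

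**Figure D4:**
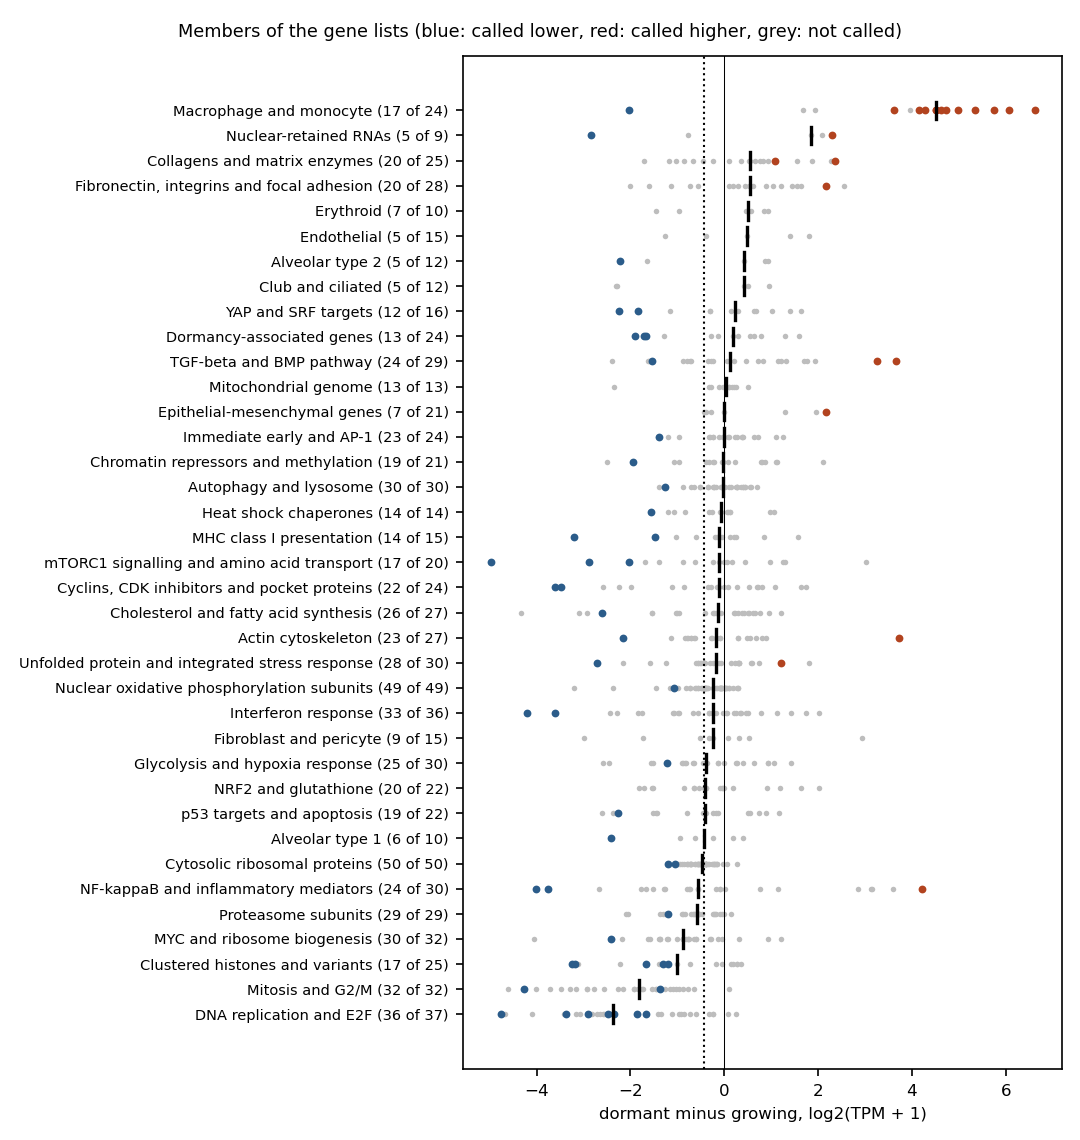
Differences of the members of 37 gene lists with 5 or more genes tested, the satellite-type list left out, on the log2(TPM + 1) scale, 1 point per gene (blue called lower, red called higher, grey not called), with a bar at each list's median. Numbers after each name are the genes tested and the genes in the list. The dotted line is the median of all genes, -0.44. The macrophage list lies at 4.51 and the G2/M and DNA replication lists at -1.82 and -2.37.

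Interferon and inflammatory genes held few calls. Of 33 interferon response genes tested, 2 (6.06%, beside 7.92% of all genes) were called lower and 0 higher, and the median was -0.23. Ifit1, an antiviral RNA-binding protein, was at 4.28, 0.96 and 1.17 TPM in dormant and 46.2, 53.8 and 54.0 TPM in growing libraries (-4.21 ± 0.679, limma adjusted p 0.0148), and Ifi44 was at or below 0.01 TPM against 9.40 to 15.6 TPM, having passed the filter through the growing group alone. Iigp1, a GTPase that attacks vacuoles, was at 517, 112 and 62.0 TPM against 39.3, 39.5 and 32.2 TPM (2.03, adjusted p 0.184). The receptor gene Ifngr1 was at 4.92, 68.6 and 40.8 TPM against 7.82, 26.5 and 23.4 TPM (adjusted p 0.824). Of 14 class I presentation genes tested, 2 (14.3%, beside 7.92% of all genes) were called lower and 0 higher, and the median was -0.11. Psmb10, an immunoproteasome subunit, fell (155, 172 and 73.0 TPM against 377, 342 and 329 TPM, -1.47). Tap2 was at or below 0.02 TPM in dormant libraries, passed the filter through the growing group alone and had to differ. Of 24 inflammatory mediators tested, 2 (8.33%, beside 7.92% of all genes) were called lower and 1 (4.17%, beside 1.2%), Ccl5, higher, and the median was -0.56. The lower calls, Csf3 and Cxcl5, had at most 0.14 TPM in any dormant library, passed the filter through the growing group alone and had to differ. Among these genes 5 (20.8%, beside 8.85%) had dormant libraries above all growing ones. The cytokine Il1b was at 15.8, 57.2 and 59.6 TPM in dormant and 0, 5.24 and 4.31 TPM in growing libraries (3.60, adjusted p 0.0814). The chemokine Ccl7 was at 69.3, 165 and 104 TPM against 8.17, 40.3 and 7.49 TPM (2.86, adjusted p 0.0611). Cxcl2 had a difference of 3.12 (adjusted p 0.139), and none of these 3 was called.

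Of genes that other work ties to dormancy, none was called higher. Of 24 on the list, 13 were tested, 3 were called lower (Dand5, Rarb and Ddr1, each at most 0.15 TPM in dormant libraries) and 0 higher, and the median was 0.18. The 3 calls (23.1%, beside 7.92% of all genes) had passed the filter through the growing group alone and had to differ. Tpm1 (0.55, limma adjusted p 0.0731), Prrx1 (1.29, adjusted p 0.119) and Bhlhe40 (0.79, adjusted p 0.118) had dormant libraries above all growing ones without being called, as had Bhlhe41 (1.6, adjusted p 0.244). These were 4 of 13 (30.8%), beside 8.85% of all genes. Spp1, which codes for osteopontin, was at 39951, 32482 and 33468 TPM in dormant and 31819, 34070 and 33623 TPM in growing libraries, with overlapping groups (0.08, adjusted p 0.614). Klf4 was at 21.6, 21.6 and 4.80 TPM against 8.12, 9.01 and 7.83 TPM (0.63, adjusted p 0.702). Slurp1, Cd200, Gas6, Nr2f1 and Cdkn1c did not pass the filter.

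The 10 largest falls by the naming rule were all genes at or near 0 in the dormant libraries. Each of them passed the filter through the growing group alone and had to differ. Prl2c2 (a prolactin family hormone that has near-identical copies), Ibsp (a bone matrix sialoprotein), Anapc15 (a subunit of the anaphase-promoting complex), Fdx1 (an electron carrier of mitochondria), Rce1 (a protease for prenylated proteins), Abhd5 (a lipase activator), Tnfsf9 (the ligand of 4-1BB) and Ccl25 (a chemokine) were listed at 0 in all 3. Oip5 (a centromere protein) and Snhg17 (a noncoding RNA) reached 0.04 TPM. Growing libraries had between 23.1 and 67.1 TPM of these 10 genes. Prl2c2, for example, was at 67.1, 53.8 and 55.8 TPM there and Ibsp at 57.3, 54.0 and 46.2 TPM. Predicted transcripts of the same kind were 1810055G02Rik, RP23-454K24.1 and RP24-372P19.1, at 0.21 TPM or less in dormant and 25.2 to 51.9 TPM in growing libraries. They too passed the filter through the growing group alone. These genes had mean levels between 15.3 and 29.5 TPM. Of all genes, 15% to 32.2% were at 0 in a given dormant library between 5 and 20 TPM and 5.05% to 14.3% between 20 and 50 TPM, and the part of that in these falls was not tested.

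The same contrast in KO hosts used other libraries and shared none with the WT comparison. All KO libraries belonged to library batch 2, so host and batch cannot be told apart. Over the same 10221 genes 514 (5.03%) were called higher and 1768 (17.3%) lower in dormant KO, with a median of -0.51. Of the 123 genes higher in WT hosts, 84 (68.3%) lay above 0 in KO hosts, where 31.7% of all genes did. In KO hosts 47 of the 123 (38.2%, beside 5.03% of all genes) were called higher and 8 lower, beside 17.3% of all genes. Of the 810 lower genes, 588 (72.6%) lay below 0 in KO hosts, where 67.7% of all genes did. In KO hosts 127 of the 810 (15.7%, beside 17.3% of all genes) were called lower and 40 higher, beside 5.03% of all genes.

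The macrophage and cell cycle lists went in the same direction in both hosts. The macrophage median was 3.41 in KO hosts with 17 of 17 genes called higher. The G2/M median was -2.35 with 23 of 32 called lower, and the DNA replication median -2.34 with 28 of 36 called lower. Over all genes the KO median was -0.51, with 5.03% called higher and 17.3% lower. Tmsb4x (4.93), Lyz2 (4.63), Cd74 (2.93), Malat1 (2.66), Rrm2 (-4.12), Cks1b (-2.16), Eif5a (-2.22) and Dnajb1 (-2.06) had the same sign there and were called. Mki67 was not called in either host. The list of clustered histones and variants, with a median of -1.01 in WT hosts, had a median of 0.03 in KO hosts. Of its 17 genes tested, 3 were called higher in KO hosts, among them Hist1h4h (2.05), and 6 lower, beside 5.03% and 17.3% of all genes. Markers of other cell types also moved in KO hosts. Summed alveolar type 2 genes were at 40170 to 42540 TPM in dormant and 465.2 to 468.9 TPM in growing KO libraries, mesothelium genes at 13510 to 14850 against 310.4 to 565.5 TPM and erythroid genes at 50840 to 56280 against 6970 to 7904 TPM. Their part in the KO differences was not tested.

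The size of the difference, and for some genes its direction, differed between hosts. The interaction, the KO state difference minus the WT one, was called for 697 genes (6.82%) with limma, 60 of the 123 and 169 of the 810. The 123 and 810 genes were chosen for their WT difference, which enters the interaction. A larger share of calls among them is therefore built in. Tmsb4x (1.21) and Cd74 (-1.58) were among them although their sign was shared. Fn1 was higher in dormant cells of WT hosts and lower in those of KO hosts (-1.21), with an interaction of -3.37. Spp1 had no called difference in WT hosts and fell by 4.49 in KO hosts, an interaction of -4.57. Sftpc rose by 6.53 in KO hosts, an interaction of 6.11. Gm10800 rose by 2.38 there against 11.35 in WT hosts, an interaction of -8.97. Mmp10 and Mmp3 were called lower in KO hosts, at -6.31 and -3.82.

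**Figure D5:**
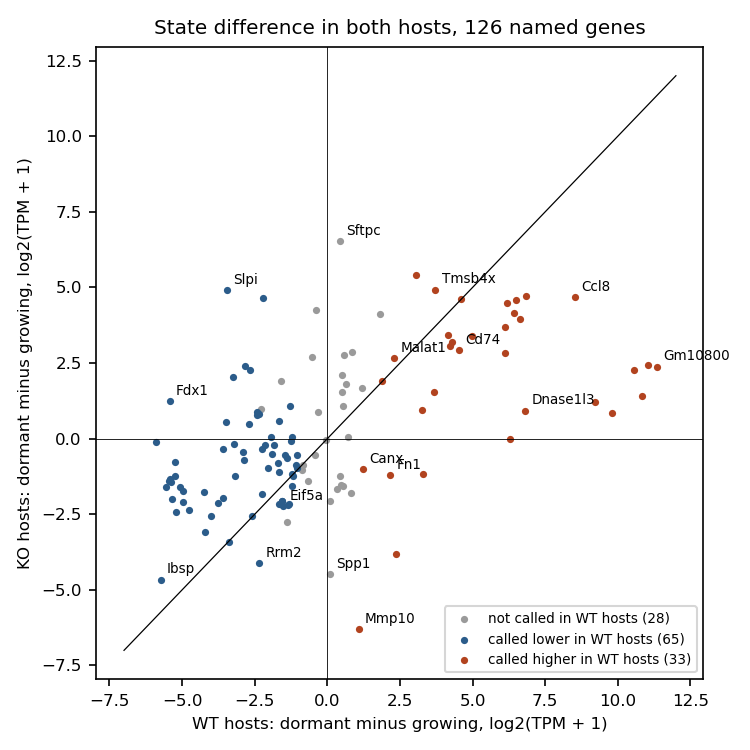
Dormant minus growing difference in KO hosts (y axis) against that in WT hosts (x axis), both on the log2(TPM + 1) scale, for 126 named genes, with the line of equal values. Red points were called higher (33), blue points lower (65) and grey points not called (28) in WT hosts. Tmsb4x lies near the line, Gm10800 far to its right, and Spp1 and Mmp10 well below 0 on the y axis.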

How the data were processed

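Libraries of polyadenylated RNA were compared as TPM values that the authors deposited in 1 table, estimated per gene with RSEM. The submitters' processing notes name bcl2fastq 2.20, cutadapt 1.18, STAR 2.5.2b, RSEM 1.3.3, DESeq2 and mm10. For library preparation a TruSeq mRNA kit is named in the labels and Smart-seq2 in the study's methods, and the sources used here do not settle which applied. TPM keeps no read counts, so no count test was run. The table also held 30 columns of other libraries, not used here.

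Genes with at least 1 TPM in at least 3 of the 6 WT libraries were tested on log2(TPM + 1) with limma 3.58.1 in R 4.3.3 (moderated test with a trend, Benjamini-Hochberg adjustment over all 10221 genes). A call needed an adjusted p of at most 0.05 and a difference of at least 1. The KO contrast was fitted on the 6 KO libraries alone and the interaction on all 12. An exact permutation test of 3 against 3 cannot go below p 0.1. The procedure was tested on simulated data. These held changes only in genes at higher levels and no added zeros of the kind seen in dormant libraries, so that test does not cover calls at low TPM. Same-numbered dormant and growing libraries did not deviate together (correlations -0.00384, -0.0172 and 0.0145), so no block was used.

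Named genes were the 10 largest changes in each direction, abundant called genes and a fixed panel, beside the called members of each list. The genes compared and the lists were chosen with earlier results of these data known, and the satellite list after its values were seen. Coordinates are from GENCODE M21 on GRCm38 and promoters from RefSeq. The alternatives were other scalings, pseudocounts, filters, library weights, a replicate block and leaving out each library. The result for 1 gene is not reported here.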

Additional observations from a re-analysis of the deposited data

Results flagged for a closer look

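The limma test of the interaction, in which the WT state difference is subtracted from the KO one, was passed by 53 of the 126 named genes, which were chosen largely for their size of change, and by 697 of 10221 genes (6.82%). All KO libraries were from library batch 2 and all WT libraries from batch 1, so host and batch cannot be told apart, and no value within a batch exists for this contrast.

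The interaction was negative for the satellite-type models Gm10801 (-9.43), Gm10800 (-8.97), Gm10718 (-8.97), Gm26870 (-8.64), Gm21738 (-8.3) and Gm10719 (-8.01), for Mir669a-2 (-6.29) and Yam1 (-4.47), and for the macrophage genes Dnase1l3 (-5.88), Ccl8 (-3.84), Fcer1g (-2.67) and Cd74 (-1.58). Matrix and adhesion genes with negative values were Mmp10 (-7.39), Mmp3 (-6.19), Fn1 (-3.37), Ltbp1 (-2.29) and Itgb1 (-1.67). The same held for Spp1 (-4.57), Canx (-2.22), Krt8 (-2.12) and Actb (-2.00).

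It was positive for the markers of other cell types Slpi (8.36), Napsa (6.88), Sftpc (6.11), Cd79a (4.94), Rtkn2 (3.30), Mgp (3.23), S100a8 (2.35), Hba-a2 (2.18), Hba-a1 (2.03) and Cbr2 (1.6). Genes at or near 0 in dormant WT libraries were positive too, namely Fdx1 (6.68), Prl2c2 (5.79), Hist1h4h (5.29), Snhg12 (5.24), Tnfsf9 (4.47), Anapc15 (4.05), Trp53 (4.04), Abhd5 (3.99), Oip5 (3.96), Rce1 (3.94), Ccl25 (3.46), Ifi44 (3.26), Utp20 (3.19), Tap2 (3.04), Mthfd2 (2.88), Hist1h4d (2.38) and Ddr1 (2.26). The rest were Tgfb2 (3.53), Tagln2 (1.96), Rps15 (1.24), mt-Atp6 (1.22) and Tmsb4x (1.21).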

How the results depend on the processing

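The number of calls depended on the setting more than the direction of single genes did. Against 933 calls (123 higher, 810 lower), array weights per library gave 67 (34 and 33), weights per state, added after seeing the data, 60 (33 and 27), a replicate block 25 (25 and 0), an adjusted p limit of 0.01 19 (18 and 1) and no filter 69 (36 and 33). A filter on a mean of 1 TPM gave 275 (71 and 204), a mean of 50 TPM, added after seeing the data, 104 (58 and 46), a minimum of 5 TPM 401 with 297 lower, a pseudocount of 5 436 with 339 lower, and quantile normalization 157 with 75 lower. The fit over 12 libraries gave 278 higher. Of the lower genes 127 were also called lower in KO hosts, and 75 under quantile normalization. Leaving out 1 library gave 681 to 1979 calls, 58 to 294 higher and 622 to 1685 lower, with 1979 without dormant WT 1 and 681 without growing WT 3. The cause was not tested.

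Under quantile normalization 3 genes called lower turned direction, Tfeb (0.01, against -1.26), Smad3 (0.27, against -1.55) and Yap1 (0.05, against -1.84), all of which had passed the filter through the growing group alone. Genes not called that turned there were Spp1 (0.00), Mki67 (0.16), Top2a (-0.02) and Egfl7 (0.62). Egfl7 also turned with a pseudocount of 5 (0.36), and mt-Atp8 with array weights (0.02) and with median-ratio scaling over all genes (0.02) or, added after seeing the data, from 50 TPM (0.20). Leaving out 1 library gave ranges across 0, from -0.14 to 0.19 for mt-Atp8, -2.45 to 0.63 for Egfl7, -0.02 to 0.79 for Gsn, -0.01 to 0.14 for Spp1, -0.12 to 0.37 for Top2a and -0.20 to 1.58 for Ifngr1. Besides the genes so marked in the results, calls were kept in 5 of the 6 fits for Mmp10, Rps2-ps10 and Tfeb, in 4 for Yam1, Cdc6 and Smad3, in 3 for Ptprc, Napsa, Hist1h2bg, Mmp3, Tagln2, Psmb3, Psmb10, Pgam1, Ifit1 and Trp53, in 2 for E2f4 and in 1 for Rarb and RP24-458F14.4. Of 917 alternative values of the 44 list medians, 857 moved by less than the spread between libraries. Quantile normalization raised the median of all genes from -0.44 to 0.02 and moved many list medians. Among them were the inflammatory (-0.56 to -0.00), dormancy (0.18 to 0.45), fibronectin (0.54 to 0.94) and mitochondrial (0.03 to -0.28) lists. Larger moves were those of the TGF-beta (0.13 to 1.13), endothelial (0.49 to 1.91) and histone (-1.01 to -0.23) lists. Medians that turned included those of the mTORC1 (-0.11 to 0.13), cholesterol (-0.13 to 0.28), class I (-0.11 to 0.12) and fibroblast (-0.25 to 0.29) lists. Depth is unknown, which limits every gene at low TPM.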
